A study of Mus musculus with 45 samples.

Results

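The collagen genes of mouse forelimb buds in organ culture were followed over culture time and with bisphenol S (BPS). The family was taken as every protein-coding gene whose symbol has the form of a collagen alpha chain: Col, a type number, the letter a and a chain number. The rule found 44 genes among 34994 genes in the deposited tables, and all 44 were listed in each of the 9 tables. Forelimbs of CD1 mouse embryos of gestation day 13 were pooled and cultured in bottles of medium with ascorbic acid, limbs of both sexes together. Bottles received the vehicle dimethyl sulfoxide (control), 10 µM BPS or 50 µM BPS, and RNA was taken after 3, 24 or 48 h, which gave 9 groups of 5 libraries. The 5 libraries of 50 µM at 48 h carry the strain names CD2, CD3, CD4, CD5 and CD6 in place of CD1, and were kept in the analysis. BPS is an industrial bisphenol that replaces bisphenol A in many products. A limb bud holds many cell types, so fewer cells of a type and less RNA per cell cannot be told apart in these values.

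Collagens are secreted or membrane proteins in which alpha chains wind into a triple helix built on a short repeat that starts with glycine. Fibrillar types form the cables of cartilage, bone, tendon and skin, types with interrupted helices (FACIT) sit on those cables, and network types build basement membranes and the matrix around hypertrophic chondrocytes. In the limb bud, mesenchyme rich in types I and III forms cartilage of types II, IX and XI, which later carries type X where it is replaced by bone.

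The family as a whole is rich in coding exon lengths that the naming rule did not use, unevenly between members. Of the 2005 coding exons of the 44 genes in the GENCODE M21 annotation, 469 were exactly 54 bases long, which is 23.4%, and 61.8% had a length that is a multiple of 9 bases, the length of one glycine repeat. Among the other 21907 protein-coding genes, 0.445% of coding exons were 54 bases long and 14.03% had a length that is a multiple of 9. The fibrillar genes held many exons of 54 bases, 24 of 54 coding exons in Col2a1 and 21 of 51 in Col1a1. Some FACIT genes did too, with 28 of 63 in Col22a1 and 14 of 32 in Col9a2, while others held few, with 4 of 65 in Col12a1. Col4a2 had 1 of 47. Col17a1, a transmembrane collagen, had 3 of 53. The short-chain genes Col8a1, Col8a2 and Col10a1 had 2 coding exons each and 0 of that length.

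Several members lie side by side in the genome (build mm10, coordinates as deposited). Col4a1 and Col4a2, the chains of the commonest basement membrane collagen, start head to head on chromosome 8, and the genes overlap by 22 bases. Col4a4 and Col4a3 start head to head on chromosome 1 with 71 bases between them, and Col4a6 and Col4a5 on chromosome X with 1308 bases between them. Col3a1 and Col5a2 end tail to tail on chromosome 1, 24614 bases apart.

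The start windows of the type IV pair and of Col10a1 are shown, the pair because both genes share one region while only one of them was called over the first day of culture, and Col10a1 because it had the largest rises. The sequences are those of RefSeq on GRCm38.p6, 250 bases before to 50 bases after the start, written 5′ to 3′ along the strand of each gene. Capitals mark the TATA box TATAAA, the CCAAT box and the GC box GGGCGG, searched on both strands. The RUNX core TGTGGT and the SOX core AACAAT had 0 matches in these windows.
Col4a1, chr8:11312777-11313076, minus strand: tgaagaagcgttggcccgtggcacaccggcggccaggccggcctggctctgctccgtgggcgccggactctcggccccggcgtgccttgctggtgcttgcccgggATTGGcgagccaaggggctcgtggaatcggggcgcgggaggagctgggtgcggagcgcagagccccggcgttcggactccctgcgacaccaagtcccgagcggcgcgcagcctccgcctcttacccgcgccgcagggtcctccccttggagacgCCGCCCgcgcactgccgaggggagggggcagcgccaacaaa
Col4a2, chr8:11312555-11312854, plus strand: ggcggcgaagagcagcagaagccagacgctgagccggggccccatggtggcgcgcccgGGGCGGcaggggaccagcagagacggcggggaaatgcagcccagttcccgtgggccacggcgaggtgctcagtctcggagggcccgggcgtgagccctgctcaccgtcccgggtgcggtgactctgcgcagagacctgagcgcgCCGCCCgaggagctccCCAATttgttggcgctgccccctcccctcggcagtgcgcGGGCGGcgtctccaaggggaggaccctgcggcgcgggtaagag
Col10a1, chr10:34389731-34390030, plus strand: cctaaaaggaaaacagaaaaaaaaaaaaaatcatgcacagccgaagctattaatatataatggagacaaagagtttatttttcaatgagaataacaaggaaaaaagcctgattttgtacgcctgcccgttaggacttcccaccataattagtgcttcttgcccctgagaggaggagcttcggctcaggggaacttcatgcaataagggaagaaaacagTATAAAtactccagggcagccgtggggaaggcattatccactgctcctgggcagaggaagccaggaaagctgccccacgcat

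The Col4a1 and Col4a2 windows share 78 bases and have a GC content of 74% and 73.67%. The Col10a1 window has a GC content of 44.33%, with TATAAA starting 32 bases before the start. Windows were found for 35 of the 44 genes, 38 windows in all, with a median GC content of 59.8% against 52.7% for all 32851 windows of this length. GGGCGG was in 60.5% of the 38 windows, against 35.7% of all windows. TATAAA was in 13.2% against 13.6%, CCAAT in 34.2% against 37.4%, TGTGGT in 7.9% against 16.8% and AACAAT in 2.6% against 10.7%. These are matches of letters, not sites.

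Libraries held 15.2 to 23.1 M reads in genes (median 18.2 M), and 3 reads corresponded to 0.13 to 0.197 CPM, counts scaled to library size. Levels are CPM unless a sentence says otherwise. Fold changes are log2 values ± the standard error (SE) from edgeR's quasi-likelihood test. A gene was called at an adjusted p below 0.05, with Benjamini-Hochberg adjustment over all genes tested. Nothing in the labels ties a library to its own culture or litter, and p-values therefore measure only the spread between these libraries, which may be technical. Of the 12 chondrocyte markers 0 stayed under 1 CPM in every library, and of the 10 osteoblast markers the late genes Bglap and Bglap2 did. Control replicate 3 at 48 h stood apart, with a chondrocyte marker sum of 3376 CPM against 4359.8 to 5009 CPM in the other control libraries of that time, and a skeletal muscle sum of 3217 against 4161 to 4907 CPM. Replicate 5 at 24 h had the lowest sum of the 11 epidermis markers both with 50 µM BPS (198 CPM) and in control (211 CPM).

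The first question was what culture time alone did to the collagen genes in control limb buds. Collagen reads made up 1.43% ± 0.0429 of all reads at 3 h, 2.41% ± 0.124 at 24 h and 3.96% ± 0.255 at 48 h (SD, n = 5 each). Most chains of cartilage and fibrous tissue rose on both days. Chains of basement membranes and of epithelial anchorage were lower or not called on the first day.

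At 24 h against 3 h, 41 members passed the filter on low counts, of which 26 were higher, 6 were lower and 9 were not called. Of all 16536 genes tested, 40.2% were called, 20% as higher and 20.1% as lower. The median log2 fold change was 0.47 over the tested members and -0.01 over all genes tested. At 48 h against 24 h, 28 of 40 tested members were higher and 0 were lower, with a median of 0.54, where 16% of all genes were called, 9.44% as higher and 6.55% as lower. At 48 h against 3 h, 30 of 42 were higher and 6 lower, where 49.3% of all genes were called, 24.5% as higher and 24.8% as lower.

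These comparisons share control libraries. The share of all genes with each pair of calls over the successive days was not computed, and the shares per day do not give it. Over the successive days 22 members were higher both times, and 4 (Col13a1, Col19a1, Col26a1 and Col27a1) were higher on the first day and not called on the second. Of these, Col13a1 was close to the threshold on the second day (0.47 ± 0.157, adjusted p = 0.0564, edgeR). It passed in DESeq2 (adjusted p = 0.0259), in one edgeR fit of all 45 libraries (adjusted p = 0.0373) and with upper-quartile scaling (adjusted p = 0.048, edgeR). It also passed without control replicate 3 at 24 h or replicate 5 at 48 h (adjusted p = 0.0226 and 0.0322, edgeR). Col4a1 and Col18a1 were lower and then higher. Col17a1, Col20a1, Col23a1 and Col6a5 were lower on the first day and not called on the second. Col4a2, Col5a3, Col15a1 and Col24a1 were not called on the first day and higher on the second. Col4a5, Col4a6, Col7a1 and Col25a1 were called on neither day, and Col4a3, Col4a4, Col6a4 and Col28a1 were not tested on at least 1 of the days.

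**Figure D1:**
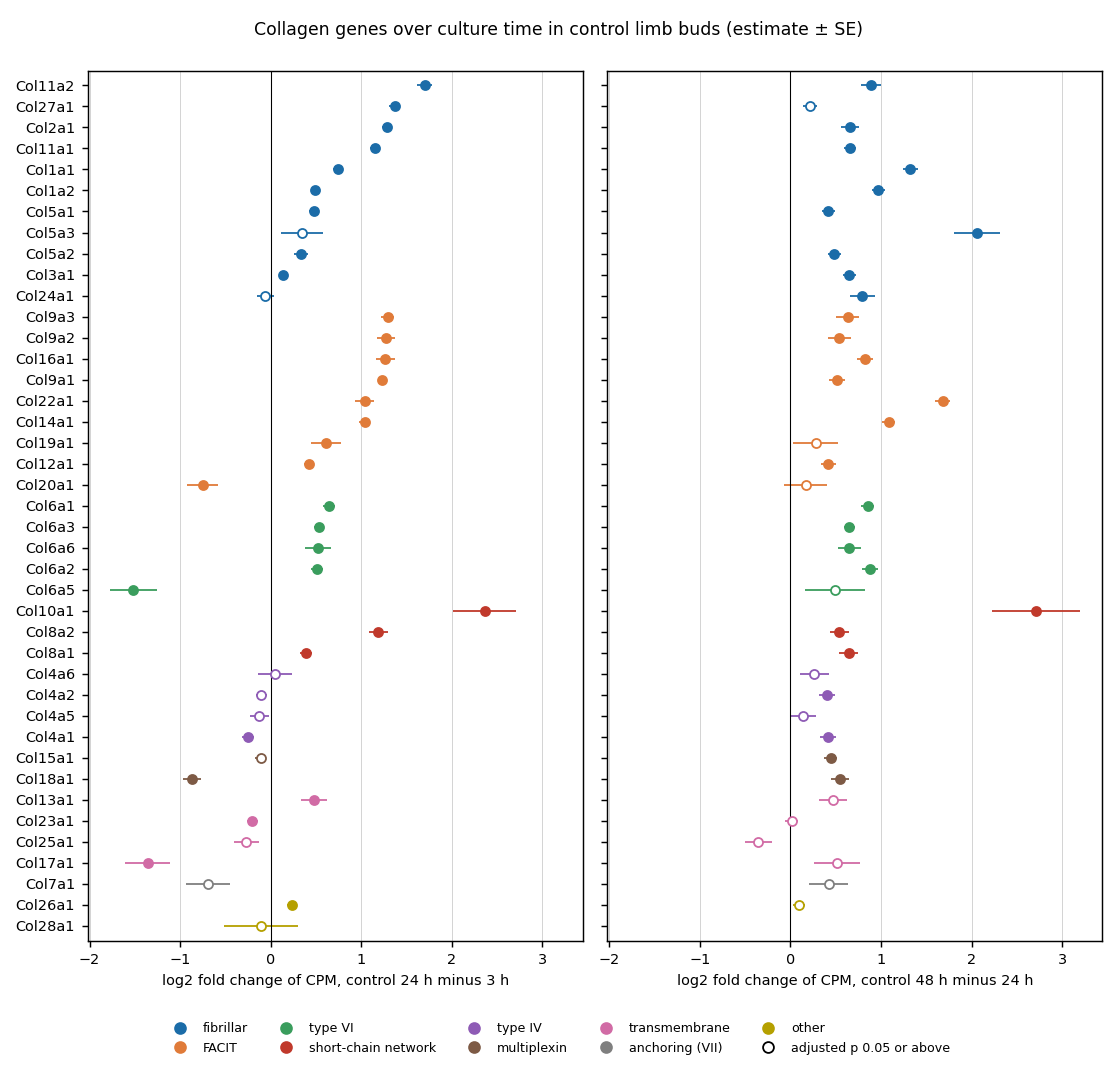
Log2 fold change of CPM (x axis, with its SE) for each tested collagen gene (y axis, grouped by class) in control limb buds, at 24 h minus 3 h and at 48 h minus 24 h. Open points had an adjusted p of 0.05 or more. The first day runs from -1.52 for Col6a5 to 2.36 for Col10a1, and on the second day no called gene lies below 0.

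Of the fibrillar chains, 9 of 11 rose on the first day and 10 of 11 on the second. Col2a1 (chr15:97975602-98004695, minus strand), the main fibril chain of cartilage, had 2369, 2543, 2781, 2721 and 2561 CPM at 3 h. It had 6650.5, 6156, 6353, 6289 and 6197 CPM at 24 h and 11759, 10573, 7377, 10455 and 9997 CPM at 48 h. The times did not overlap, and the lowest 48 h library was control replicate 3. The rise was 1.29 ± 0.053 on the first day (adjusted p = 2.81e-13, edgeR) and 0.66 ± 0.104 on the second (adjusted p = 0.000366, edgeR).

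Type XI collagen seeds the cartilage fibril and limits its width. Col11a2 had 280.3, 316, 355, 292 and 295 CPM at 3 h, 1033, 1086, 1099.7, 949 and 832 CPM at 24 h and 2213, 1960.3, 1460.3, 2022 and 1635 CPM at 48 h. Col11a1 had 395, 394, 379, 367 and 405 CPM at 3 h, 883, 831, 894, 814 and 879.6 CPM at 24 h and 1401, 1266, 1313, 1389 and 1456 CPM at 48 h. Each time lay wholly above the one before for both genes. On the first day Col11a2 rose by 1.70 ± 0.080 and Col11a1 by 1.15 ± 0.048, and on the second by 0.89 ± 0.110 and 0.66 ± 0.065.

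Col27a1, a fibrillar chain of cartilage, had 618, 684, 692, 600.1 and 597 CPM at 24 h against 215, 255, 272, 248 and 244.8 CPM at 3 h. The times were apart, and the rise was 1.37 ± 0.063. On the second day it reached 697, 819.5, 657, 811 and 740.5 CPM, and its second change of 0.22 ± 0.077 was not called (adjusted p = 0.0707, edgeR). It passed in DESeq2 (adjusted p = 0.0329), in one edgeR fit of all 45 libraries (adjusted p = 0.013) and with no filter on low counts (adjusted p = 0.0262, edgeR). It also passed without control replicate 1 or replicate 3 at 48 h (adjusted p = 0.0252 and 0.0256, edgeR).

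Type I collagen is the main fibril of bone, tendon and skin. Col1a1 (chr11:94936224-94953042, plus strand), its major chain, had 1518, 1559.5, 1725, 1705 and 1559 CPM at 3 h, 2924, 2655, 2665, 2854 and 2401 CPM at 24 h and 7761, 6496, 6885, 6397 and 6343 CPM at 48 h. Col1a2, its other chain, had 1615, 1688, 1671, 1665 and 1633 CPM at 3 h, 2438, 2314, 2333, 2363 and 2182 CPM at 24 h and 4980.4, 4369.7, 4777, 4257 and 4477 CPM at 48 h. In both genes all libraries of each time lay above those of the time before. Col1a1 rose by 0.74 ± 0.058 on the first day and 1.32 ± 0.083 on the second, and Col1a2 by 0.49 ± 0.047 and 0.97 ± 0.072.

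Col3a1, the chain of thin fibrils in loose connective tissue, had 1870.1, 1682, 1676, 1651 and 1571 CPM at 24 h against 1565, 1526, 1581, 1452 and 1551 CPM at 3 h. The ranges overlapped. The difference of 0.14 ± 0.052 passed narrowly (adjusted p = 0.0386, edgeR) and was lost without any one of control replicates 1, 2 and 3 at 24 h (adjusted p = 0.126, 0.0653 and 0.0521) or 2, 4 and 5 at 3 h (adjusted p = 0.0705, 0.0994 and 0.0621, edgeR). It was also lost in one edgeR fit of all 45 libraries (adjusted p = 0.0883). On the second day Col3a1 rose by 0.65 ± 0.069, with 2846, 2624, 2682, 2559 and 2628 CPM at 48 h.

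Type V chains start the assembly of type I fibrils. Col5a1 and Col5a2 rose by 0.47 ± 0.053 and 0.33 ± 0.075 on the first day and by 0.42 ± 0.069 and 0.48 ± 0.072 on the second. Col5a3 (chr9:20770050-20815067, minus strand), a less common type V chain, had 2.86, 2.61, 2.23, 2.90 and 1.77 CPM at 3 h, 4.40, 2.65, 4.17, 2.64 and 1.86 CPM at 24 h and 15.2, 14.4, 18.1, 10.7 and 7.74 CPM at 48 h. The earlier times overlapped and 48 h lay above both. Its change was 0.35 ± 0.230 on the first day (adjusted p = 0.245, edgeR) and 2.06 ± 0.249 on the second (adjusted p = 5e-05, edgeR).

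Col24a1, a fibrillar chain found in forming bone, had 40.4, 51.6, 69.4, 47.5 and 53.8 CPM at 48 h against 30.5, 29.99, 35.8, 32.6 and 22.1 CPM at 24 h. The times were apart, with a rise of 0.79 ± 0.138, while the first day gave -0.06 ± 0.097 without a call (adjusted p = 0.666, edgeR). Beside the fibrillar chains, 10 of 11 tested chondrocyte markers and 7 of 8 tested osteoblast markers were higher at 24 h than at 3 h, and 8 of 12 and 5 of 8 were higher at 48 h than at 24 h. Their part in the collagen values was not tested.

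Of the 9 FACIT chains, 8 rose and 1 fell on the first day, and 7 rose on the second. Type IX collagen is bound to the surface of type II fibrils. Col9a1 had 447, 483.2, 484.5, 465 and 454 CPM at 3 h, 1113, 1081, 1139, 1077 and 1057 CPM at 24 h and 1781, 1625, 1217, 1664 and 1561 CPM at 48 h. The times did not overlap, and control replicate 3 was again the lowest at 48 h. Col9a1, Col9a2 and Col9a3 rose by 1.23 ± 0.047, 1.27 ± 0.101 and 1.29 ± 0.077 on the first day and by 0.51 ± 0.088, 0.54 ± 0.126 and 0.63 ± 0.128 on the second. The second rise of Col9a2 missed the threshold with no filter on low counts (adjusted p = 0.0547, edgeR). Of the exonic bases of Col9a3, 7.68% are also covered by another gene, the highest share in the family, and the library kit is not stated to keep strand.

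Col22a1, a chain of muscle-tendon junctions, had 9.86, 7.43, 8.39, 8.82 and 8.13 CPM at 3 h, 17.8, 20.03, 16.6, 18.5 and 15.0 CPM at 24 h and 57.1, 59.8, 59.4, 55.9 and 50.6 CPM at 48 h. The times were apart, with rises of 1.04 ± 0.104 and 1.68 ± 0.085. Beside it, 10 of 10 tested skeletal muscle markers were higher at 24 h than at 3 h, and 7 of 11 at 48 h than at 24 h, and their part was not tested. Col14a1 and Col12a1, which coat fibrils of tendon and dense connective tissue, rose by 1.04 ± 0.060 and 0.42 ± 0.053 on the first day and by 1.08 ± 0.074 and 0.42 ± 0.085 on the second.

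Col16a1, a FACIT chain of skin and cartilage, rose by 1.27 ± 0.106 and 0.82 ± 0.091. Col19a1 averaged 5.38 ± 0.754 CPM at 24 h and 3.53 ± 0.760 CPM at 3 h (SD, n = 5 each) and rose by 0.61 ± 0.165. Col20a1 was the FACIT chain that fell, with 5.13, 5.04, 5.01, 9.75 and 5.41 CPM at 24 h against 11.5, 8.23, 9.99, 9.45 and 11.8 CPM at 3 h. Replicate 4 at 24 h lay within the 3 h range and the other 24 h libraries lay below it. The fall was -0.75 ± 0.171 (adjusted p = 0.0016, edgeR).

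The short-chain collagens rose in 3 of 3 cases on the first day and 3 of 3 on the second, and Col10a1 had the highest fold change of the tested members on both days. Col10a1 (chr10:34389981-34397085, plus strand) marks hypertrophic chondrocytes, which enlarge before cartilage is replaced by bone. It had 4.49, 6.24, 4.12, 5.04 and 3.73 CPM at 3 h, 16.5, 15.6, 41.8, 31.2 and 16.4 CPM at 24 h and 263, 216, 109, 151 and 59.1 CPM at 48 h. The times did not overlap, although libraries of one time spread widely, with a coefficient of variation of 48.3% at 24 h and 51.2% at 48 h. The rises were 2.36 ± 0.350 (adjusted p = 0.00066, edgeR) and 2.71 ± 0.487 (adjusted p = 0.00634, edgeR).

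Other markers of hypertrophic chondrocytes were higher in 7 of 7 tested cases at 24 h than at 3 h and in 4 of 9 at 48 h than at 24 h. As a level per length (RPKM, CPM per kilobase of the deposited gene length), Col10a1 stood at 1.51 ± 0.312 at 3 h, rank 34 of 44, and at 51.1 ± 26.1 at 48 h, rank 20. These ranks depend on the deposited lengths. The type VIII chains Col8a2 and Col8a1, which form sheet-like networks, rose by 1.19 ± 0.103 and 0.39 ± 0.069 on the first day and by 0.54 ± 0.103 and 0.64 ± 0.105 on the second.

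**Figure D2:**
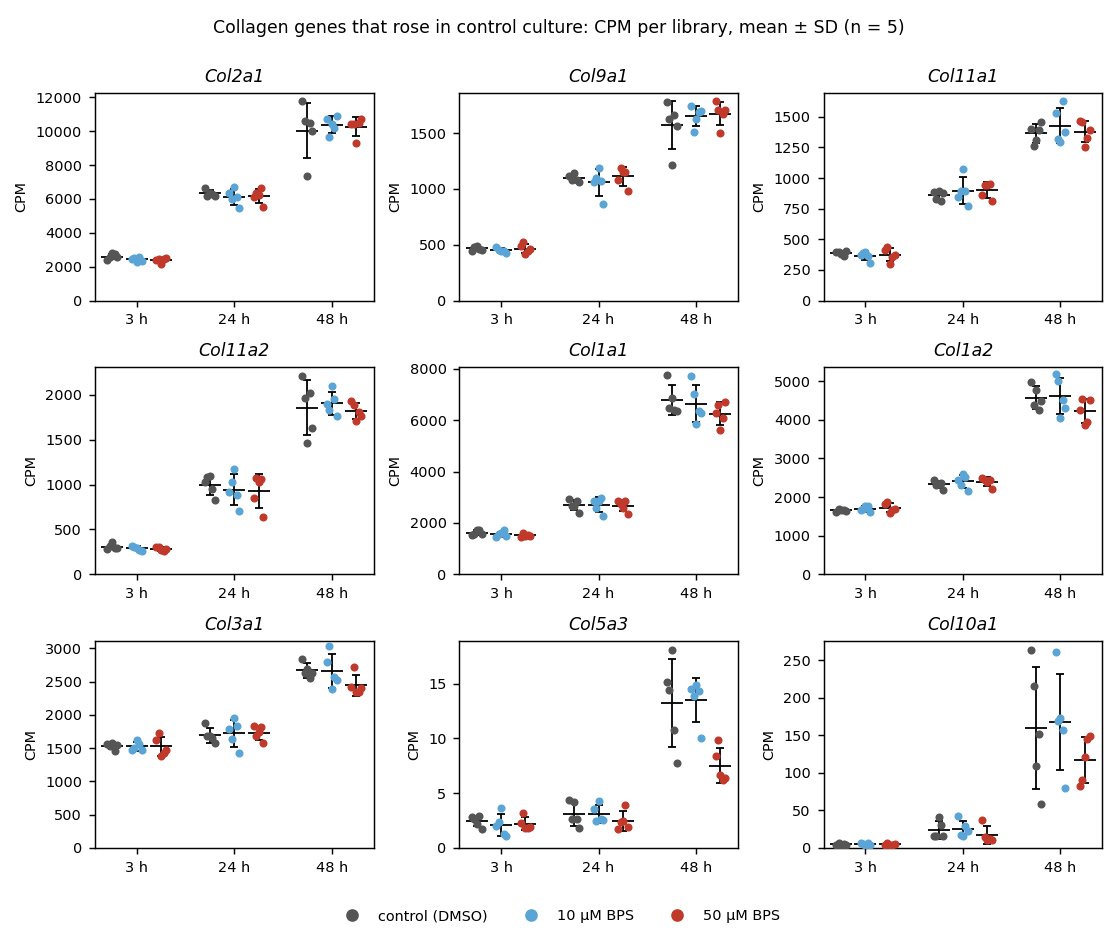
CPM (y axis) of 9 collagen genes in every library, by culture time and by treatment (control, 10 and 50 µM BPS), with the mean and SD of 5 libraries. The libraries of each BPS dose overlap those of control at the same time in every panel, and at 48 h those of Col5a3 run from 10.002 to 14.9 CPM with 10 µM and 6.22 to 9.89 CPM with 50 µM, which do not overlap. Control libraries of Col10a1 at 48 h run from 59.1 to 263 CPM.

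Type VI collagen forms beaded filaments around cells. Its common chains Col6a1, Col6a2 and Col6a3 rose by 0.64 ± 0.062, 0.51 ± 0.064 and 0.54 ± 0.054 on the first day and by 0.85 ± 0.077, 0.88 ± 0.089 and 0.65 ± 0.063 on the second. Col6a6, which can take the place of Col6a3, rose by 0.52 ± 0.141 and 0.65 ± 0.124. Col6a5, another chain of that kind, had 1.47, 1.32, 0.422, 0.981 and 1.203 CPM at 24 h against 2.71, 2.89, 3.35, 3.72 and 2.75 CPM at 3 h. Every 24 h library lay below every 3 h library, and the fall was -1.52 ± 0.256 (adjusted p = 6.61e-05, edgeR). Col6a4 ranged from 0.393 to 1.04 CPM in control at 48 h and was filtered out of both comparisons of successive days.

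Type IV chains form the network of basement membranes, and on the first day 0 of 4 tested rose and 1 fell. Col4a1 had 455, 427, 402, 398 and 415 CPM at 3 h, 401, 381, 339.6, 329.5 and 311 CPM at 24 h and 526, 441, 539, 429 and 422 CPM at 48 h. Col4a2 had 306, 290.01, 299, 283 and 297 CPM at 3 h, 319, 289.5, 257, 265 and 242.7 CPM at 24 h and 421, 349, 395, 333 and 332 CPM at 48 h. For each gene the 24 h range overlapped the 3 h range, and the 48 h libraries lay above those of 24 h.

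Col4a1 changed by -0.25 ± 0.064 on the first day (adjusted p = 0.00369, edgeR), and Col4a2, which shares the start region shown above, by -0.10 ± 0.062 without a call (adjusted p = 0.194, edgeR). The difference between the genes was not tested, and without control replicate 1 at 24 h Col4a2 was also lower (-0.16, adjusted p = 0.0236, edgeR). On the second day they rose by 0.41 ± 0.090 and 0.41 ± 0.087. Col4a5 and Col4a6, the X-linked pair, averaged 29.5 ± 3.89 and 5.44 ± 1.45 CPM at 3 h. Col4a3 was under 1 CPM in every library, and Col4a4 ranged from 0.373 to 1.52 CPM in control at 48 h.

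The multiplexins belong to basement membrane zones of vessels, muscle and epithelia. Col18a1 (chr10:77052178-77166548, minus strand), the source of endostatin, had 182, 169.8, 153, 143 and 159.9 CPM at 3 h, 102, 93.6, 95.8, 83.5 and 67.0 CPM at 24 h and 148, 129.7, 136, 122 and 116 CPM at 48 h. All 24 h libraries lay below the ranges of both other times. The fall was -0.87 ± 0.104 (adjusted p = 2.09e-05, edgeR) and the later rise 0.55 ± 0.1004. Col15a1 changed by -0.11 ± 0.061 without a call (adjusted p = 0.165, edgeR), was called without control replicate 1 at 24 h (-0.15, adjusted p = 0.0438, edgeR), and then rose by 0.44 ± 0.073.

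Endothelial markers moved beside these genes on the first day. Of the 12 markers 11 were lower at 24 h than at 3 h, with sums of 284 to 352 CPM at 24 h against 465 to 472 CPM at 3 h. At 48 h against 24 h 0 were higher and 1 lower, with sums of 293 to 411 CPM at 48 h. Their part in the type IV, XV and XVIII values was not tested.

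Of the 4 transmembrane collagens 1 rose and 2 fell on the first day, and 0 rose and 0 fell on the second (edgeR). Col17a1 (chr19:47646344-47692094, minus strand), which anchors basal keratinocytes at hemidesmosomes, had 56.1, 63.4, 59.0, 33.7 and 57.5 CPM at 3 h, 27.2, 19.2, 26.3, 20.4 and 12.3 CPM at 24 h and 29.9, 24.7, 48.9, 25.2 and 22.9 CPM at 48 h. The 24 h libraries lay below the 3 h range, and the fall was -1.36 ± 0.246 (adjusted p = 0.0023, edgeR). Of the 10 tested epidermis markers 5 were lower and 2 higher over that day, with sums of 211 to 471 CPM at 24 h against 365 to 651 CPM at 3 h. The library with the lowest Col17a1 at 3 h (replicate 4) and at 24 h (replicate 5) also had the lowest of these sums at that time.

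At 48 h the epidermis sums were 647 to 1021 CPM. The single markers were mixed, with 4 of 11 tested higher and 3 lower than at 3 h and a median log2 fold change of -0.11. Of all genes 24.5% were higher and 24.8% lower in that comparison. Col17a1 remained lower at 48 h than at 3 h (-0.83 ± 0.232, adjusted p = 0.0129, edgeR). The part of epidermal cells in the Col17a1 values was not tested. Col7a1, the anchoring fibril of skin, had 27.8, 22.1, 23.5, 18.5 and 10.4 CPM at 24 h against 27.0, 41.1, 35.3, 29.0 and 32.3 CPM at 3 h. The ranges overlap in 1 library of each time. With -0.69 ± 0.243 it missed the threshold (adjusted p = 0.0506, edgeR). It passed in DESeq2 (adjusted p = 0.0193), limma-voom (adjusted p = 0.00525), one edgeR fit of all 45 libraries (adjusted p = 0.00922) and with upper-quartile scaling (adjusted p = 0.0486, edgeR). It also passed without control replicate 5 (-0.52, adjusted p = 0.00796, edgeR) or replicate 1 at 24 h (adjusted p = 0.0262, edgeR).

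Col23a1, a transmembrane chain, changed by -0.20 ± 0.064 on the first day (adjusted p = 0.0151, edgeR), and Col13a1, found at cell adhesions and neuromuscular junctions, rose by 0.48 ± 0.139. Col25a1 (chr3:130131501-130599877, plus strand), needed in mice for motor axons to enter muscle, changed by -0.27 ± 0.138 and -0.35 ± 0.152, neither called. It was lower at 48 h than at 3 h (-0.61 ± 0.176, adjusted p = 0.0134, edgeR). On the first day it was called in DESeq2 (adjusted p = 0.0449) and without control replicate 5 at 24 h or replicate 3 at 3 h (adjusted p = 0.041 and 0.00354, edgeR), and on the second without control replicate 5 at 48 h (adjusted p = 0.0335, edgeR). Col26a1 rose by 0.23 ± 0.053 on the first day, and Col28a1 gave -0.11 ± 0.409 without a call.

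**Figure D3:**
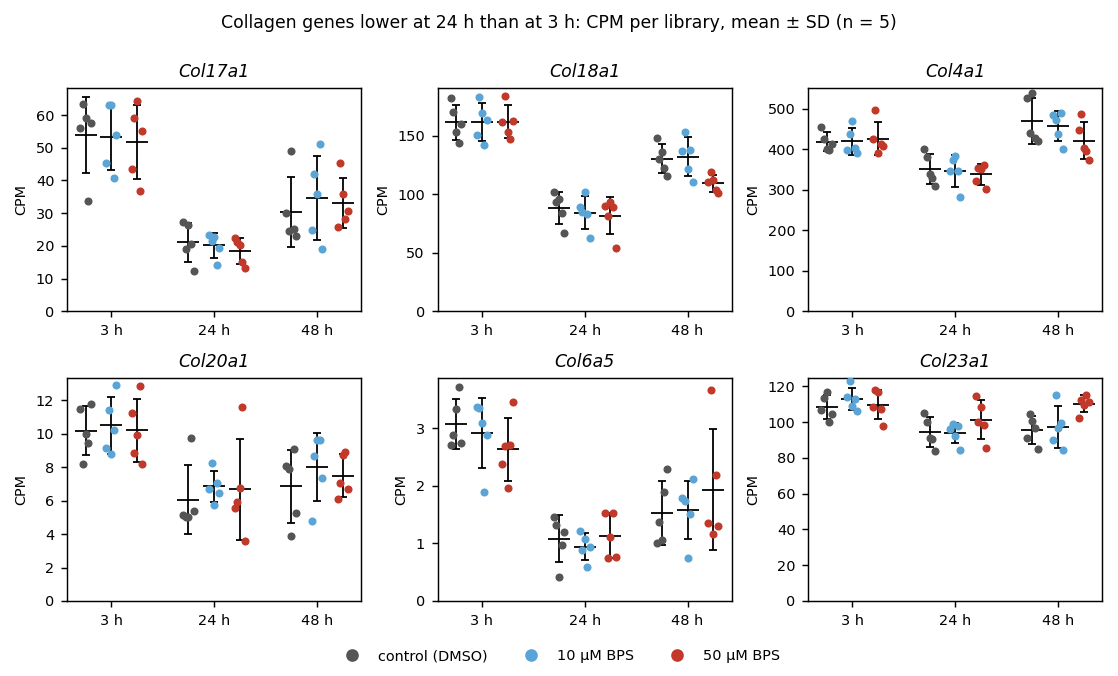
CPM (y axis) of the 6 collagen genes that were lower at 24 h than at 3 h in control culture, in every library, by culture time and by treatment (control, 10 and 50 µM BPS), with the mean and SD of 5 libraries. Control libraries of Col18a1 run from 143 to 182 CPM at 3 h, 67.0 to 102 CPM at 24 h and 116 to 148 CPM at 48 h.

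Of 9 ratios between chains of one collagen type, 5 lay apart between 24 h and 3 h in control culture and 2 between 48 h and 24 h, and the others overlapped. Ratios are of RPKM, so their size depends on the deposited gene lengths and their change over time does not. Col1a1 over Col1a2 stood at 1.85 ± 0.0943 at 3 h, 2.20 ± 0.0839 at 24 h and 2.80 ± 0.105 at 48 h in control libraries (SD, n = 5 each). These ranges did not overlap. Col11a1 over Col11a2 stood at 0.681 ± 0.0717, 0.466 ± 0.0598 and 0.403 ± 0.0711 at the same times, and Col8a1 over Col8a2 at 0.139 ± 0.0168, 0.0798 ± 0.00949 and 0.0856 ± 0.0168. Col4a1 over Col4a2 stood at 1.26 ± 0.0516, 1.14 ± 0.0309 and 1.14 ± 0.0405. Ranges overlapped between all times for Col9a1 over Col9a2, at 0.647 ± 0.0416, 0.636 ± 0.0917 and 0.619 ± 0.0434, and for Col5a1 over Col5a2, at 1.86 ± 0.205, 2.02 ± 0.0989 and 1.94 ± 0.0851, and also for Col9a1 over Col9a3. With BPS 0 of the 9 ratios lay apart from control at 10 µM at any time or at 50 µM at 3 and 24 h. At 50 µM and 48 h 1 lay apart, Col9a1 over Col9a2, at 0.736 ± 0.0247 with 50 µM and 0.619 ± 0.0434 in control. How often ratios of other gene pairs lie apart was not computed, so separation by chance was not judged.

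**Figure D4:**
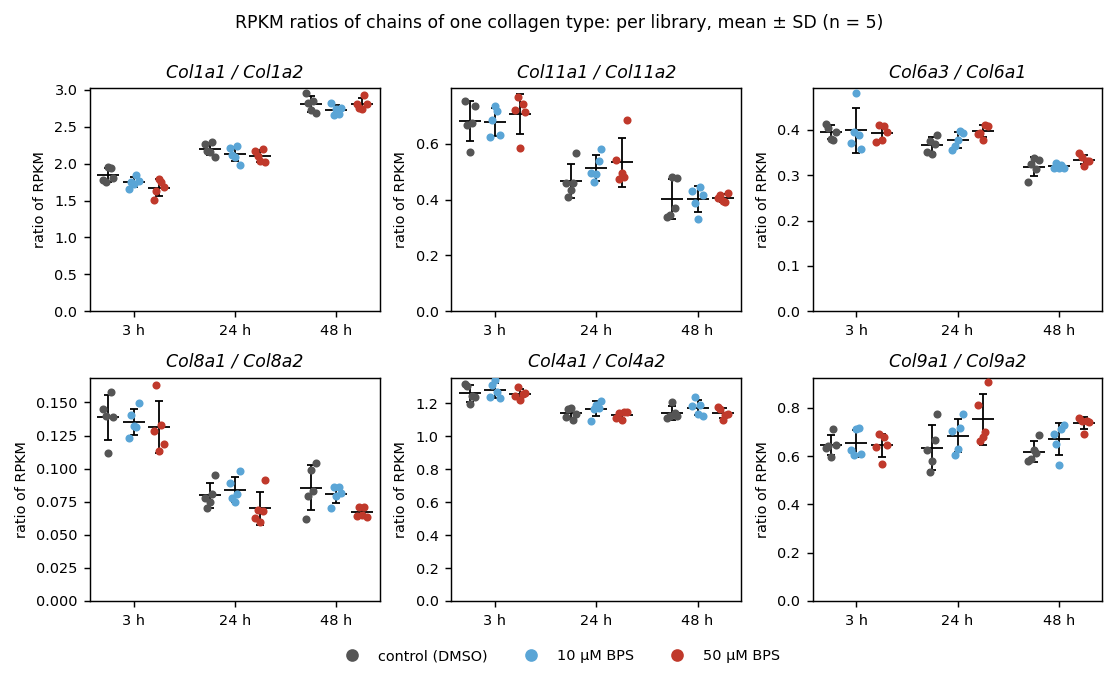
Ratio of RPKM (y axis) of 6 pairs of chains of one collagen type in every library, by culture time and by treatment (control, 10 and 50 µM BPS), with the mean and SD of 5 libraries. Control libraries of Col1a1 over Col1a2 run from 1.75 to 1.95 at 3 h, 2.08 to 2.29 at 24 h and 2.68 to 2.95 at 48 h.

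By level per deposited gene length Col2a1 and Col1a1 led the family at both ends of the culture. In control libraries at 3 h Col2a1 had 281 ± 17.6 RPKM, Col1a1 246 ± 14.4 and Col3a1 156 ± 5.14. At 48 h Col2a1 had 1085 ± 175 RPKM and Col1a1 1032 ± 89.9, followed by Col9a2 at 504 ± 88.0. At the deposited lengths Col2a1 and Col1a1 did not differ beyond their spread at 48 h, while at 3 h Col2a1 was higher by more than the SD of either. These ranks depend on those lengths, 9243 bases for Col2a1, 6563 for Col1a1, 12426 for Col1a2 and 3095 for Col9a2. The exonic bases of these genes in GENCODE M21 are 5104, 5930, 5348 and 2924, and ranks by exonic length were not computed. Col4a3 was the lowest at both times, at 0.0132 ± 0.0114 RPKM at 3 h and 0.0165 ± 0.0142 RPKM at 48 h.

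Other genes of the collagen pathway are counted beside all genes tested, of which 20% were higher and 20.1% lower at 24 h than at 3 h, and 9.44% higher and 6.55% lower at 48 h than at 24 h (edgeR). Of the prolyl and lysyl modification enzymes 13 of 15 were higher at 24 h than at 3 h and 6 of 15 at 48 h than at 24 h. P3h1, a prolyl 3-hydroxylase, averaged 202 ± 9.79 CPM at 24 h and 133 ± 3.12 CPM at 3 h (0.60 ± 0.048). Folding and export genes rose in 9 of 12 cases on the first day and 6 of 12 on the second. Creb3l1, a transcription factor of secretory cells, rose by 1.02 ± 0.068 and 0.62 ± 0.069. Serpinh1, the collagen chaperone HSP47, averaged 1932 ± 209.9 CPM at 48 h and 1520.3 ± 141 CPM at 24 h (0.34 ± 0.088, adjusted p = 0.0141, edgeR).

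Genes of propeptide cleavage and cross-linking rose in 9 of 12 cases on the first day and 8 of 12 on the second. Loxl4, a lysyl oxidase, averaged 15.0 ± 2.66 CPM at 48 h and 4.08 ± 1.33 CPM at 24 h (1.86 ± 0.195). Partner proteins of fibrils rose in 10 of 12 cases and then in 12 of 12, among them Bgn, the proteoglycan biglycan (1.14 ± 0.070 on the second day). Of 8 tested collagen receptors 3 rose and 1 fell on the first day, and 4 rose on the second. The first-day count of receptors is near the 40.2% of all genes called in either direction. Itga10, the chondrocyte collagen integrin, rose by 1.83 ± 0.087 and 1.15 ± 0.108, and Itga2 changed by -0.48 ± 0.106 on the first day. Of 12 regulators of collagen genes 9 rose on the first day, and 3 rose and 2 fell on the second. Sp7, the osteoblast factor, rose by 1.05 ± 0.096 and 0.75 ± 0.121.

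The second question was what BPS did to the collagen genes at each time. With 50 µM BPS edgeR tested 43, 40 and 41 members at 3, 24 and 48 h and called 0 of them at every time, where 0.0538%, 0.375% and 1% of all genes were called. An unadjusted p below 0.05 was found for 1, 4 and 8 members, against 1334 of 16722, 2048 of 16512 and 2157 of 16663 genes. DESeq2 called 0, 1 and 2 members, and 0.304%, 2.07% and 3.07% of all genes. The median log2 difference of the tested members was -0.02 at 3 h, 0.03 at 24 h and -0.04 at 48 h.

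Col2a1 and Col1a1 differed little in estimate between 50 µM BPS and control at 48 h. Col2a1 averaged 10272 ± 549.6 CPM with 50 µM and 10032.2 ± 1621 CPM in control (0.03 ± 0.104, adjusted p = 0.932, edgeR). Col1a1 averaged 6258 ± 442 CPM with 50 µM and 6776 ± 589.7 CPM in control (-0.12 ± 0.078, adjusted p = 0.57, edgeR). Col10a1 had 82.6, 90.5, 121, 145 and 149 CPM with 50 µM against 59.1 to 263 CPM in control, and its difference of -0.45 ± 0.397 was not called (adjusted p = 0.699, edgeR). At 24 h Col10a1 had the lowest estimate of the tested members (-0.48, not called). Its control libraries at 24 h ran from 15.6 to 41.8 CPM. With 50 µM replicate 1 had 37.4 CPM and the other libraries 10.3 to 15.1 CPM. At 3 h the smallest p-value was that of Col2a1, with 2394 ± 133 CPM at 50 µM and 2595 ± 162 CPM in control (-0.12 ± 0.050, adjusted p = 0.578, edgeR). Next at 3 h were Col19a1 (-0.42 ± 0.220), Col11a2 (-0.12 ± 0.064), Col1a1 (-0.08 ± 0.047) and Col6a3 (-0.08 ± 0.051), none called.

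Col5a3 had the smallest p-value at 48 h, with 8.36, 9.89, 6.62, 6.22 and 6.38 CPM in the 50 µM libraries and 15.2, 14.4, 18.1, 10.7 and 7.74 CPM in control. The groups overlap through control replicate 5, the lowest of its group. The difference of -0.82 ± 0.200 missed the threshold (adjusted p = 0.0704, edgeR). It passed in DESeq2 (adjusted p = 0.00471), in one edgeR fit of all 45 libraries (adjusted p = 0.0329) and without control replicate 5 (-0.96, adjusted p = 0.00803, edgeR). The authors' deposited table, in which 1.45% of genes were below 0.05, gives an adjusted p of 0.00514. With 10 µM at 48 h Col5a3 averaged 13.5 ± 2.01 CPM, and all 10 µM libraries lay above the 50 µM range. The difference between the doses was not tested.

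Col18a1 had 111, 119, 112, 104 and 101 CPM with 50 µM at 48 h and 148, 129.7, 136, 122 and 116 CPM in control. The ranges overlap in 1 library of each group. The difference was -0.26 ± 0.069 (adjusted p = 0.0968, edgeR). It passed in DESeq2 (adjusted p = 0.03), with no filter on low counts (adjusted p = 0.0443, edgeR) and without control replicate 5 (-0.30, adjusted p = 0.0495, edgeR). The authors' deposited table gives an adjusted p of 0.0315.

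Some markers of other cells were called beside these values at 48 h (edgeR), where 1% of all genes were called. Of 12 endothelial markers 1 was lower, with sums of 269 to 329.7 CPM with 50 µM and 293 to 411 CPM in control. Of 10 macrophage markers 4 were lower, with sums of 145 to 222 CPM with 50 µM and 213 to 295 CPM in control. Of 12 chondrocyte markers 1 was lower (Ucma, -1.32 ± 0.215), of 10 tendon and fibroblast markers 1 (Thbs4, -0.59 ± 0.099) and of 6 perichondrium and joint markers 1 (Osr2, -0.52 ± 0.072). Of 9 hypertrophic chondrocyte markers 1 was higher (Ihh, 0.63 ± 0.123). Sums of the tendon and fibroblast markers were 1446 to 1671 CPM with 50 µM and 1603 to 1792 CPM in control. The part of these cells in the Col5a3 and Col18a1 values was not tested.

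Col23a1, Col27a1 and Col24a1 had the next smallest p-values at 48 h, all higher in estimate with 50 µM and none called. Col23a1 averaged 110.3 ± 4.81 CPM with 50 µM and 95.5 ± 7.82 CPM in control (0.21 ± 0.063, adjusted p = 0.148, edgeR). Col27a1 averaged 857 ± 37.7 CPM with 50 µM and 745 ± 70.7 CPM in control (0.20 ± 0.071, adjusted p = 0.222, edgeR). Col24a1 averaged 63.9 ± 2.62 CPM with 50 µM and 52.5 ± 10.7 CPM in control (0.28 ± 0.103, adjusted p = 0.253, edgeR). Without control replicate 3, the highest of its group, Col24a1 was called (0.40, adjusted p = 0.0189, edgeR).

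At 24 h, deviations of libraries with the same replicate number were correlated between the 50 µM and control groups (0.116 to 0.354). The 50 µM library of replicate 2 was closer to a control library of another number (0.144 with its own). The edgeR fit with the replicate number as a block is therefore given too, a choice made on these same data. It called 6 members and 5.75% of all genes. Col25a1 (0.36, adjusted p = 0.00136), Col8a2 (0.17, adjusted p = 0.00765) and Col12a1 (0.18, adjusted p = 0.0173) were higher in the blocked edgeR fit. Col4a5 (0.25, adjusted p = 0.0318) and Col24a1 (0.22, adjusted p = 0.0393) were also higher in the blocked edgeR fit. Col9a2 was lower (-0.22, adjusted p = 0.0258, blocked edgeR fit).

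Few markers of other cells were called with 50 µM at 24 h in the unpaired edgeR fit, where 0.375% of all genes were called. Of 10 macrophage markers 1 was lower, with a median log2 difference of -0.42 and sums of 105 to 132 CPM with 50 µM and 128 to 175 CPM in control. Of 6 perichondrium and joint markers 1 was lower (Osr2, -0.35 ± 0.060). Of 12 endothelial markers 0 were called, with sums of 270.1 to 291 CPM with 50 µM and 284 to 352 CPM in control. Of 10 epidermis markers 0 were called, with a median log2 difference of -0.25. Their part in the collagen values at 24 h was not tested.

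Col25a1 had 88.9, 125, 109, 107 and 129.7 CPM with 50 µM at 24 h and 81.7, 81.5, 83.3, 79.3 and 110.04 CPM in control. The groups overlap through control replicate 5, the highest of its group. The unpaired difference was 0.36 ± 0.116 (adjusted p = 0.23, edgeR). It passed in DESeq2 (adjusted p = 0.0421) and without control replicate 5 (0.46, adjusted p = 0.0282, edgeR). The authors' deposited table for 24 h, with 0.893% of genes below 0.05, gives an adjusted p of 0.0407.

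Col9a2 had 813, 1097, 1035, 1005 and 662 CPM with 50 µM at 24 h and 1089, 1237, 1201, 984 and 836 CPM in control, where replicate 5 was the lowest of both groups. Col12a1 had 436, 452, 495, 524 and 403 CPM with 50 µM and 402, 400.5, 437, 398 and 401 CPM in control (unpaired 0.18 ± 0.062, adjusted p = 0.218, edgeR). Both genes overlap between the groups. The unpaired differences of Col4a5, Col5a2 and Col24a1 at 24 h were 0.25 ± 0.084, 0.12 ± 0.055 and 0.22 ± 0.122, and those of Col8a2 and Col9a2 0.18 ± 0.126 and -0.21 ± 0.159, none called.

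**Figure D5:**
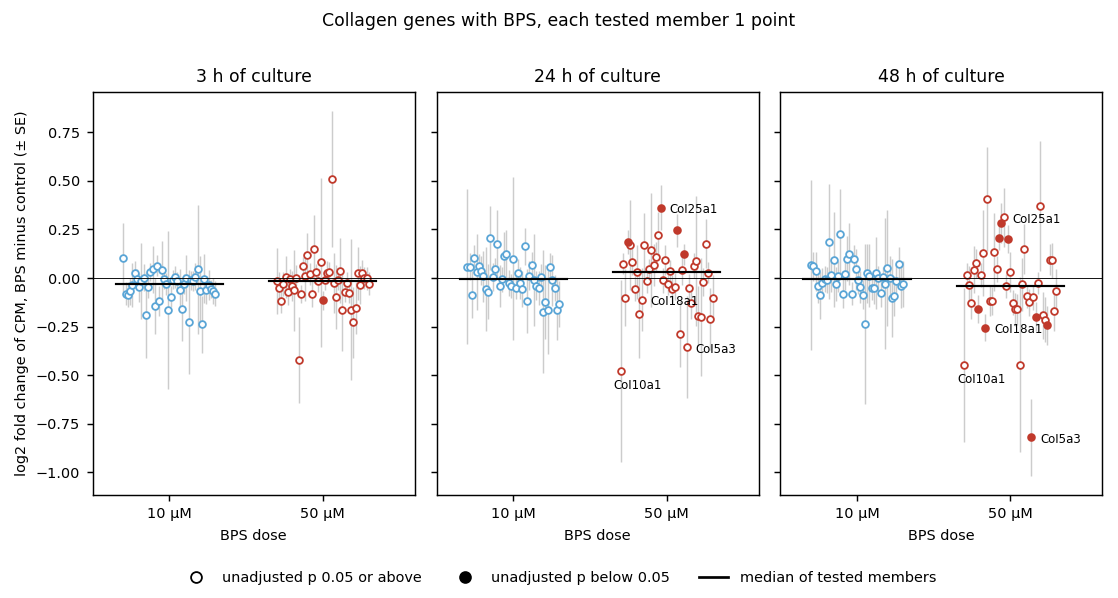
Log2 fold change of CPM, BPS minus control (y axis, with its SE), for each tested collagen gene at 10 and 50 µM after 3, 24 and 48 h. Filled points had an unadjusted p below 0.05 and the line is the median of the members. The median at 50 µM is -0.04 at 48 h, where Col5a3 lies at -0.82.

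With 10 µM BPS 0 members were called at 3, 24 or 48 h of 42, 41 and 42 tested (edgeR), where 0% of all genes were called at each time. An unadjusted p below 0.05 was found for 0 members at each time, against 329, 494 and 438 of all genes, and DESeq2 called 0 members. Member differences ran from -0.24 to 0.11 at 3 h, -0.17 to 0.21 at 24 h and -0.24 to 0.23 at 48 h. The smallest p-values were those of Col2a1 at 3 h (-0.10 ± 0.053), Col4a5 at 24 h (0.16 ± 0.094) and Col27a1 at 48 h (0.10 ± 0.074).

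Whether the 50 µM difference itself changed between times was tested as an interaction over the 30 control and 50 µM libraries. Of 43 members 0 were called between 24 and 3 h, between 48 and 24 h or between 48 and 3 h by edgeR, where 0%, 0% and 0.0387% of all genes were called. An unadjusted p below 0.05 was found for 0, 1 and 4 members, against 1133, 577 and 1393 of 18071 genes. The difference of Col5a3 at 48 h was therefore not shown to differ from that at 24 h (-0.45 ± 0.329, adjusted p = 1, edgeR).

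Collagen reads made up 1.43%, 1.40% and 1.40% of all reads at 0, 10 and 50 µM BPS at 3 h, 2.41%, 2.39% and 2.37% at 24 h and 3.96%, 3.98% and 3.79% at 48 h. Of the 9 chain ratios 1 lay apart between 50 µM and control, only at 48 h, with no background from other gene pairs. Col9a1 over Col9a2 ran from 0.694 to 0.758 with 50 µM and from 0.581 to 0.689 in control. In the lists of modification, folding, cleavage, partner and receptor genes 0 genes were called by edgeR with 50 µM at any time. Among the regulators Foxc1, a forkhead factor of skeletal progenitors, was higher at 48 h, at 177 ± 7.09 CPM with 50 µM against 142 ± 8.70 CPM in control (0.32 ± 0.056, adjusted p = 0.0116, edgeR).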

How the data were processed

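Poly-A RNA of cultured forelimb buds was sequenced in 45 libraries, copied from random hexamers per the labels' protocols. Build mm10 and the tools STAR 2.5, HTSeq 0.6.1, CASAVA 1.8 and DESeq2 come from the submitters' processing notes, which give them no role. The annotation release is not given in the sources used here. Deposited by the authors were 9 tables, 1 per comparison of 2 groups, which hold raw read counts per gene and library per the file headers. Log2 fold changes and adjusted p-values in the same tables are the authors' own, per the file headers, and are quoted only where the deposited table is named. Gene lengths and coordinates are as deposited.

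Joining the tables on gene identifiers gave 34994 genes. Control counts recur between tables, and 0 of 1319925 repeated values differed. Totals ran from 15.2 to 23.1 M reads, and the floor of 3 reads covers counting error only. Each comparison was fitted on its 10 libraries with edgeR 4.0.16 in R 4.3.3 (quasi-likelihood, two-sided, TMM scaling, filterByExpr, robust dispersion). The Benjamini-Hochberg adjustment covered every gene that passed the filter. The interaction was fitted on 30 libraries. The SE was taken from the fold change and the F statistic. CPM used TMM factors over all libraries. Code was tested on simulated data.

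Alternatives were limma-voom (limma 3.58.1), DESeq2 1.42.0, RLE and upper-quartile scaling, no filter on low counts, the replicate number as a block, all 45 libraries in one fit, and each library left out in turn. The replicate numbers come from the sample titles, which do not say what they share. Libraries of one number were taken as paired where every correlation of their deviations from the group means was over 0.1. This held for 50 µM BPS against control at 3 h (0.168 to 0.343) and 24 h (0.116 to 0.354) and for 10 µM at 24 h (0.125 to 0.369). In each of these the BPS library of replicate 2 was closer to a control library of another number, and for 10 µM replicate 4 was too.

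Every member could be named. Values per library are given for the type-defining chains, for the 4 largest rises and falls in control culture and for members close to a call with BPS, and other listed genes by their smallest p. Members and lists were chosen with earlier results of these data known. RefSeq start windows were matched by symbol.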

Additional observations from a re-analysis of the deposited data

Results flagged for a closer look

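In 22 members and 9 groups of 5 libraries, 198 groups in all, 13 held a highest or lowest library far from the other 4, by a gap of more than 0.71 of the group's range (Dixon's test). Chance flags about 1 in 20 groups. Groups share libraries across genes, so these are not independent.

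With 50 µM BPS at 24 h, Col10a1 stood at 37.4 CPM in replicate 1 against 10.3 to 15.1 in the others, Col22a1 at 13.8 CPM in replicate 5 against 18.6 to 20.1, and Col24a1 at 26.2 CPM in replicate 5 against 36.3 to 39.5. With 50 µM at 48 h, Col2a1 stood at 9314 CPM in replicate 3 against 10395 to 10717, and Col3a1 at 2722 CPM in replicate 2 against 2339 to 2415. With 50 µM at 3 h, Col9a3 stood at 329.6 CPM in replicate 4 against 382.9 to 397.7. With 10 µM at 48 h, Col27a1 stood at 873 CPM in replicate 3 against 767 to 793, and Col5a3 at 10.002 CPM in replicate 5 against 13.9 to 14.9.

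In control at 24 h, Col12a1 stood at 436.8 CPM in replicate 3 against 398 to 402, Col20a1 at 9.75 CPM in replicate 4 against 5.01 to 5.41, and Col25a1 at 110.04 CPM in replicate 5 against 79.3 to 83.3. Col17a1 stood at 33.7 CPM in control replicate 4 at 3 h against 56.1 to 63.4, and at 48.9 CPM in control replicate 3 at 48 h against 22.9 to 29.9.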

How the results depend on the processing

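In control culture the number of called members was 32 for 24 h against 3 h (31 to 34 with 1 library left out, 31 to 34 in the other settings), 28 for 48 h against 24 h (28 to 30 and 28 to 33) and 36 for 48 h against 3 h (34 to 37 and 36 to 37). In every setting run, 31 of 32, 27 of 28 and 33 of 36 called members kept their call. The exceptions were Col3a1, then Col9a2, then Col20a1, Col23a1 and Col25a1. With 50 µM BPS at 24 h, DESeq2 called 1 member, and leaving out 1 library gave 0 to 1. At 48 h, DESeq2 called 2 members, no filter on low counts 1 and the fit of all 45 libraries 1, and leaving out 1 library gave 0 to 2. The cause was not tested. With 10 µM BPS and for the interactions 0 members were called in every setting run.

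With the replicate number as a block, 6 members were called with 50 µM BPS at 24 h, where the libraries were taken as paired from their correlations. The block gave 0 calls in the other comparisons taken as paired, 50 µM at 3 h and 10 µM at 24 h, and in those of BPS at 48 h. In the 48 h against 24 h control comparison, not taken as paired, the block gave 33, with Col7a1, Col13a1, Col17a1, Col25a1 and Col27a1 gained.

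Of 3125 alternative values of single members, 3047 kept direction and side of the threshold, 43 gained a call, 20 lost one and 15 changed sign. All sign changes were of uncalled members with 1 library left out. Over all settings, the main fit included, values ran from -0.030 to 0.057 for Col23a1 at 48 h against 24 h and from -0.13 to 0.038 for Col24a1 at 24 h against 3 h. They ran from -0.54 to 0.23 for Col28a1 at 24 h against 3 h, and from -0.10 to 0.11 for Col4a5 at 48 h against 3 h. The same ranges were -0.074 to 0.16 for Col4a6 at 24 h against 3 h, -0.11 to 0.0027 for Col6a2 with 10 µM BPS at 48 h, and -0.38 to 0.00084 for Col6a4 at 48 h against 3 h. Depth limits Col4a3, Col4a4, Col6a4 and Col28a1, which lie near the filter.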
